A study of Mus musculus with 9 samples.

Results

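Transcript levels of 8 myeloid transcription factor genes were described in mouse DC subsets: Spi1 and Spic of the ETS family, Cebpa, Cebpb and Cebpd of the C/EBP family, Klf4 and Klf2 of the KLF family, and Tbx21 of the T-box family. They were chosen by gene symbol, and each matched 1 of the 39179 genes in the table. RNA was sequenced from cDC1 (CD8pos), cDC2 (CD8neg) and pDC (plasmacytoid DC) sorted from spleens of C57BL/6J mice at steady state, with no stimulation or gene deletion in any group. The study's gates for such sorts took CD11c-high, CD317-low cells as conventional DC, divided them into CD8+ CD11b- cDC1 and CD8- CD11b+ cDC2, and took CD11c-intermediate, CD317-high, CD11b- cells as pDC. There were 3 libraries per subset, each made from a pool of 15 to 17 mice. The labels give no age, and the study states an age only as a range in weeks for all its mice other than the bone marrow chimeras. A pooled library averages over its mice, so the spread between replicates is that between pools.

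PU.1, the product of Spi1, is an ETS factor that binds purine-rich DNA and is needed for the formation of myeloid cells, DC among them. Spi-C is its relative in red pulp macrophages of the spleen, which recycle iron from red blood cells, and Spi-B, from Spib, is the relative known for pDC. C/EBP proteins bind DNA as dimers and drive granulocyte and monocyte genes, KLF proteins are zinc finger factors that bind GC-rich and CACCC elements, and T-bet, from Tbx21, is the T-box factor of type 1 lymphocytes that has also been described in a part of the splenic cDC2.

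Library totals ran from 15806597 to 32453789 counts on genes, with replicate 3 the lowest in each subset. A count of 3, taken as the floor of detection, stood for 0.0908 to 0.203 CPM, and that floor covers counting error only. CPM here are counts scaled to a common library size with edgeR's TMM factors. The filter on low counts left 13819 genes for testing, all 8 members among them, and the lowest count of any member in any library was 5. The markers followed the labels: 7 cDC1 markers summed to 3900 to 4330 CPM in cDC1 and at most 700 elsewhere, and 6 pDC markers to 10600 to 11800 CPM in pDC and at most 223 elsewhere. The 6 cDC2 markers did not set cDC2 apart from pDC, at 1830 to 1980 and 1900 to 2060 CPM, since Cd4 was higher in pDC. Itgam, the gene for CD11b, stood at 235 ± 13.5 CPM (SD, n = 3) in cDC2 against 11.6 ± 4.16 in cDC1 and 11.3 ± 4.0 in pDC. Among these markers Cd8a, Bst2 (the gene for CD317) and Itgam encode proteins used in the study's gates, so their values follow the sort.

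Among the 8 genes, Spi1 and Tbx21 were lowest in pDC, the C/EBP genes and Klf4 were lowest in cDC1, and Tbx21 showed the widest range, with its high level in cDC2. In pDC against cDC1, 6 of 8 members passed an adjusted p of 0.05 (quasi-likelihood test of edgeR, Benjamini-Hochberg adjustment over all genes tested), a rule that called 48.6% of all genes. Cebpa, Cebpb, Cebpd and Klf4 were higher in pDC, a direction called in 24.3% of all genes, and Spi1 and Tbx21 were lower, called in 24.4%. In pDC against cDC2, 4 of 8 passed against 45.8% of all genes, and Spi1, Spic, Klf4 and Tbx21 were each lower in pDC, a direction called in 23.3% of all genes. In cDC2 against cDC1, 6 of 8 passed against 24.4% of all genes, and Spi1, Spic, Cebpa, Cebpd, Klf4 and Tbx21 were each higher in cDC2, a direction called in 12.7% of all genes. With an absolute log2 fold change of 1 or more required as well, 6, 3 and 5 members passed in these comparisons, against 29.4%, 27.8% and 13.1% of all genes. The libraries of the groups did not overlap for 6 members in each comparison, against 58.6%, 56.1% and 44.5% of all genes. The median log2 fold change over the members was 0.849, -0.0288 and 1.26 in the same order, and over all genes it was 0.0178, -0.0088 and 0.0269. In bulk RNA, fewer cells that express a gene and less RNA per cell cannot be told apart, and this holds for each value here.

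**Figure D1:**
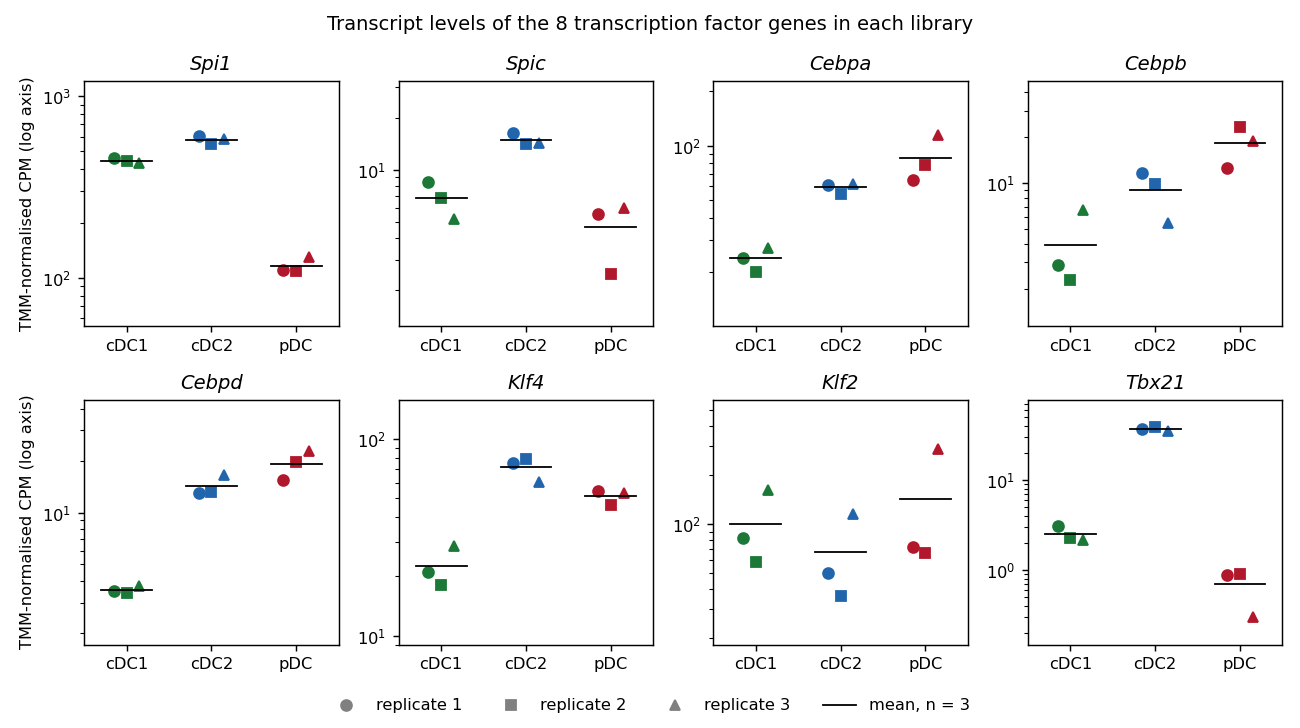
TMM-normalised CPM on a log axis (vertical) for each of the 8 genes in each of the 9 libraries, by subset (horizontal), with the symbol giving the replicate number and the bar the mean of 3 libraries. Spi1 lay between 109 and 130 CPM in the 3 pDC libraries and at 430 or more in the conventional DC, Tbx21 lay above 35 CPM in the cDC2 alone, and Klf2 in replicate 3 lay above replicates 1 and 2 in each subset.

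Promoter sequences are given for 4 members before their values. They are Klf2 and Klf4, which behaved differently across replicate numbers, Cebpb, and Tbx21, which differed most between subsets. The set of RefSeq promoters used here (GRCm38.p6) had an entry for 6 of the 8 members and lacked Spi1 and Cebpd. Each stretch runs 5′ to 3′ on the gene's own strand and ends before the first start annotated in RefSeq or GENCODE M21. Capitals mark the letters CACCC, a core of KLF sites, and TGACG, a CREB/ATF site core, on either strand (GGGTG and CGTCA are their reverse complements). The stretches are Klf2 from chr8:72318812-72319032 (plus strand), Klf4 from chr4:55532476-55532725 (minus strand), Cebpb from chr2:167688665-167688914 (plus strand), and Tbx21 from chr11:97115332-97115581 (minus strand).
Klf2: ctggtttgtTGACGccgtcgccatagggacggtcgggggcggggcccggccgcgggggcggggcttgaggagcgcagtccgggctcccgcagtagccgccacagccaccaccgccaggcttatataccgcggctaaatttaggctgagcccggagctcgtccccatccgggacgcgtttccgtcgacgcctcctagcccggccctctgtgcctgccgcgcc
Klf4: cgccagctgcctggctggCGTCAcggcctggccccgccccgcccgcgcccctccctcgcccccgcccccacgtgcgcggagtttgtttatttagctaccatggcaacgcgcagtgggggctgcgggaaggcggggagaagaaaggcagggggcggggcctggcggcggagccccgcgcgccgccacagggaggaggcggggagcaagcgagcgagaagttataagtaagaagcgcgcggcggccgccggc
Cebpb: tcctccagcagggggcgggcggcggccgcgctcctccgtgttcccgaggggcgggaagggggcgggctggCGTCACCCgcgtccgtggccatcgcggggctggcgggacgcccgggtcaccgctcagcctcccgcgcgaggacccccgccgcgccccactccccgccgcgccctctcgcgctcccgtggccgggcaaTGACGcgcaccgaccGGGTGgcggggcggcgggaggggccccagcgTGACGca
Tbx21: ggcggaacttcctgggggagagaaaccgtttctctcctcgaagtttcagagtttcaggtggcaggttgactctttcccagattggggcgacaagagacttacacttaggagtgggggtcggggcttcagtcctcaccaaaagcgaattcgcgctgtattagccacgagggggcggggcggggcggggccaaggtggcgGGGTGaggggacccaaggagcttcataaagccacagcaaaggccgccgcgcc

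TGACG was found once in the Klf2 and Klf4 windows of 300 bases (250 before the start and 50 after) and 3 times in that of Cebpb, and was not in those of Cebpa, Spic and Tbx21. The letters occur in 20.8% of 32851 promoter windows of this length. CACCC was found 2 times each in the Cebpb, Cebpa and Spic windows and once each in those of Klf2 and Tbx21, with the Klf2 match lying after the start and so outside the printed stretch, and it occurs in 57.5% of windows. In Cebpb 1 CACCC and 1 CGTCA overlap. Searched on both strands as well, GAGGAA (a PU.1 core, in 28.3% of windows), TTGCNNAA (a C/EBP palindrome, 10.8%), TCACACC (a T-box core, 3.98%) and the CArG box (1.63%) had no match in the 6 windows. The Cebpb window was the richest in G and C, at 80.7%, against 45% in Spic.

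Spi1 stood at 457, 440 and 430 CPM in cDC1 replicates 1 to 3, at 606, 543 and 582 in cDC2, and at 111, 109 and 130 in pDC. The subsets did not overlap, and the order was cDC2, cDC1, pDC. It was 3.79-fold lower in pDC than in cDC1 (log2 fold change -1.92, SE 0.0997, edgeR adjusted p = 3.44e-07) and 4.95-fold lower than in cDC2 (-2.31, SE 0.101, edgeR adjusted p = 1.57e-07). Between the conventional DC the gap was small: Spi1 was 1.31-fold higher in cDC2 (0.38, SE 0.0963, edgeR adjusted p = 0.0159). That last call was lost without cDC1 replicate 2, cDC1 replicate 3, cDC2 replicate 1 or cDC2 replicate 3 (log2 fold change 0.33 to 0.41 over the 9 libraries left out in turn, edgeR adjusted p up to 0.0696). Spi1 lies on chr2:91082390-91115756 (plus strand, GRCm38) in 5 exons and shares no stretch of 75 bases, the read length, with another annotated gene.

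Spic was low in all 3 subsets, at 8.45, 6.84 and 5.15 CPM in cDC1, 16.3, 14.0 and 14.2 in cDC2, and 5.54, 2.48 and 5.95 in pDC. The cDC2 libraries were above all others, and cDC1 and pDC overlapped. Spic was 2.17-fold higher in cDC2 than in cDC1 (log2 fold change 1.12, SE 0.3159, edgeR adjusted p = 0.0281) and 3.18-fold lower in pDC than in cDC2 (-1.67, SE 0.3224, edgeR adjusted p = 0.002). For pDC against cDC1 the difference was -0.55 (95% interval -1.27 to 0.17, edgeR adjusted p = 0.185). The call in cDC2 against cDC1 was lost without any 1 of cDC1 replicates 2 and 3 and cDC2 replicates 1, 2 and 3 (0.93 to 1.30, edgeR adjusted p up to 0.104). Spic lies on chr10:88674772-88685015 (minus strand). Of its windows of 75 bases, 1.1% occur in other genes on the same strand and 1.53% on the opposite strand. Some of these genes had more counts than Spic, such as Pak2 on the opposite strand (mean count 8230 against 220.4). Whether reads of such genes were counted for Spic was not tested.

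Since Spi-C is the factor of red pulp macrophages, their markers are given beside it. The 10 markers summed to 268, 169 and 215 CPM in cDC1 replicates 1 to 3, to 746, 510 and 730 in cDC2, and to 245, 72.2 and 286 in pDC. Of the 10, 5 were higher in cDC2 than in cDC1 while 5 did not pass, and no marker was below the floor in all 3 libraries of a subset. Adgre1, the gene for F4/80, made up much of the cDC2 sum at 344 ± 41.7 CPM (n = 3), against 14.0 ± 6.14 in cDC1 and 14.0 ± 8.61 in pDC. C1qb, a complement gene of macrophages, stood at 48.0 ± 16.2 CPM for cDC2, 8.60 ± 4.08 for cDC1 and 16.1 ± 11.2 for pDC. The part of macrophage RNA in the Spic values was not tested.

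The makeup of the SPI group turned over between conventional DC and pDC. Levels per kb of exon used the merged length of all annotated exons of a gene. They compare different genes only roughly where shorter transcripts are expressed. On that scale Spi1 made up 91.5% ± 1.36 (SD, n = 3) of the summed level of Spi1, Spib and Spic in cDC1, 79.2% ± 1.58 in cDC2 and 7.98% ± 0.197 in pDC. Spib made up 7.54% ± 1.42, 19.4% ± 1.62 and 91.8% ± 0.151, and Spic at most 1.48% in any library. The summed level was 179 CPM per kb in cDC1, 271 in cDC2 and 542 in pDC. Spib itself stood at 38.8 ± 7.75 CPM for cDC1, 151 ± 22.5 for cDC2 and 1430 ± 133 for pDC, with a log2 fold change of 5.20 in pDC against cDC1 (edgeR adjusted p = 6.16e-08). Spib was higher in cDC2 than in cDC1 by 1.96 (edgeR adjusted p = 3.44e-05), so both Spi1 and Spib had their lower conventional level in cDC1.

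**Figure D2:**
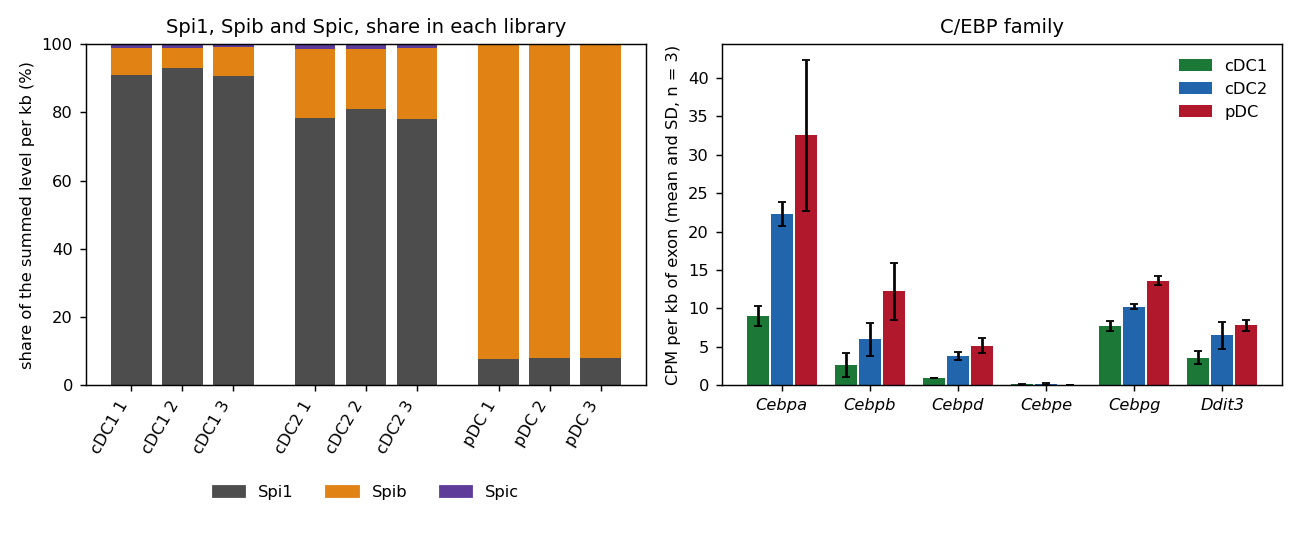
Left, the share of the summed level per kb (vertical, %) held by Spi1, Spib and Spic in each of the 9 libraries (horizontal); right, mean CPM per kb of exon with SD (n = 3) of the 6 C/EBP family genes in each subset. Spi1 holds 90.6% to 93.0% in cDC1 and 7.76% to 8.13% in pDC, where Spib holds the rest but for a trace of Spic, and Cebpa has the highest bar of the C/EBP family in each subset.

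In the wider ETS family, 19 of 26 genes were tested. In pDC against cDC1 8 were higher and 5 lower (48.6% of all genes called), and in pDC against cDC2 5 were higher and 8 lower (45.8%). In cDC2 against cDC1 10 were higher and 9 did not pass (24.4%). Ets1, a factor of lymphocytes, rose most in pDC against cDC1 (log2 fold change 5.32, edgeR adjusted p = 3.35e-08) among the ETS genes named here. Ehf, an epithelial ETS factor also described in DC, was 33.5 ± 3.42 CPM for cDC2, 4.04 ± 0.797 for cDC1 and 0.316 ± 0.293 for pDC, which put it 3.04 higher in cDC2 than in cDC1 on the log2 scale (edgeR adjusted p = 0.000221). Etv3, a repressor expressed in monocyte-derived DC, followed the order of Spi1, at 178 ± 18.1 CPM for cDC2, 109 ± 18.5 for cDC1 and 31.1 ± 1.40 for pDC.

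Cebpa, the C/EBP factor of early granulocyte and monocyte commitment, stood at 24.0, 20.1 and 27.2 CPM in cDC1, 60.8, 54.0 and 61.4 in cDC2, and 64.6, 78.2 and 114 in pDC. The subsets did not overlap, with cDC1 lowest, and the pDC libraries spread the most. Cebpa was 3.61-fold higher in pDC than in cDC1 (log2 fold change 1.85, SE 0.209, edgeR adjusted p = 5.52e-05) and 2.47-fold higher in cDC2 than in cDC1 (1.31, SE 0.2064, edgeR adjusted p = 0.0013). Between pDC and cDC2 the difference of 0.54 (SE 0.2016) stood at the threshold, with an edgeR adjusted p of 0.0504. With the replicate number as a block it was 0.51 and passed (edgeR adjusted p = 0.0137), as it did without pDC replicate 1 (0.71, edgeR adjusted p = 0.0153), while without pDC replicate 3 it was 0.28 (edgeR adjusted p = 0.154). It also passed with library size alone, in DESeq2 and with no filter on low counts, and stayed short of the threshold in 18 of 23 alternatives. Cebpa is a gene of 1 exon on chr7:35119293-35121928 (plus strand), where an antisense transcript overlaps 1.93% of its exon bases.

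Cebpb, the family member induced in inflammation, was low and uneven, at 2.88, 2.29 and 6.64 CPM in cDC1, 11.6, 9.84 and 5.47 in cDC2, and 12.5, 23.5 and 18.8 in pDC. Replicate 3 was the highest library in cDC1 and the lowest in cDC2, so these subsets overlapped, while pDC stood above both. Cebpb was 4.73-fold higher in pDC than in cDC1 (log2 fold change 2.24, SE 0.4445, edgeR adjusted p = 0.0022). The differences between pDC and cDC2 (1.02, SE 0.42, edgeR adjusted p = 0.0739) and between cDC2 and cDC1 (1.22, SE 0.4366, edgeR adjusted p = 0.0712) did not pass. In cDC2 against cDC1 the difference passed without cDC1 replicate 3 (1.76, edgeR adjusted p = 0.0133) or cDC2 replicate 3 (1.45, edgeR adjusted p = 0.047), and it was as low as 0.94 over single libraries left out, with an edgeR adjusted p up to 0.218. For pDC against cDC2, the value without cDC1 replicate 3, a library outside that comparison, was 1.01 (edgeR adjusted p = 0.0306), and single libraries left out gave 0.76 to 1.25 (edgeR adjusted p up to 0.215). The pDC against cDC2 difference also passed in a fit of only the 6 libraries compared, and it stayed short of the threshold in 19 of 23 alternatives. With all 9 libraries both passed in DESeq2 (adjusted p = 0.0301 for cDC2 against cDC1 and 0.0422 for pDC against cDC2) and in limma-voom (adjusted p = 0.0472 and 0.0442).

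Cebpd, which rises early in acute-phase responses, stood at 3.50, 3.42 and 3.72 CPM in cDC1, 13, 13.2 and 16.5 in cDC2, and 15.4, 19.6 and 22.7 in pDC. The cDC1 libraries were tight and low, and cDC2 and pDC overlapped. It was 5.41-fold higher in pDC than in cDC1 (log2 fold change 2.44, SE 0.2007, edgeR adjusted p = 6.19e-06) and 4-fold higher in cDC2 than in cDC1 (2.00, SE 0.1986, edgeR adjusted p = 7.38e-05). The difference of 0.44 between pDC and cDC2 (SE 0.186, edgeR adjusted p = 0.0829) did not pass. It passed with the replicate block (0.43, edgeR adjusted p = 0.0376), without cDC2 replicate 3 (0.55, edgeR adjusted p = 0.0499) and without pDC replicate 1 (0.58, edgeR adjusted p = 0.0397). Without pDC replicate 3 it was 0.30, and over single libraries left out the edgeR adjusted p went up to 0.228.

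Cebpb (chr2:167688915-167690418) and Cebpd (chr16:15887286-15891031), both of 1 exon on the plus strand, are overlapped by genes on the opposite strand. Tmem189 covers 20.7% of the exon bases of Cebpb, and Spidr covers 15% of those of Cebpd. The libraries were made with a stranded kit, but the strand setting of the counting is not given in the sources used here, and without strand the reads of such pairs cannot be told apart. Tmem189 moved differently from Cebpb, at 67.0 CPM for cDC1, 44.3 for cDC2 and 61.3 for pDC (log2 fold change -0.60 in cDC2 against cDC1, edgeR adjusted p = 0.0152). Spidr rose in the same direction as Cebpd but by less, from 16.2 CPM in cDC1 to 25.9 in cDC2 and 28.7 in pDC (log2 fold change 0.68 in cDC2 against cDC1, edgeR adjusted p = 0.00262). The table lists Cebpd with the biotype pseudogene.

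Across the C/EBP family, 5 of 6 genes were tested. In pDC against cDC1 all 5 of them were higher in pDC, a direction called in 24.3% of all genes. In cDC2 against cDC1 4 were higher, a direction called in 12.7% of all genes, and Cebpb was the exception. In pDC against cDC2, where 45.8% of all genes were called, only Cebpg passed (log2 fold change 0.42, edgeR adjusted p = 0.00629). Cebpg, a partner that lacks an activation domain, stood at 43.4, 57.1 and 76.5 CPM in cDC1, cDC2 and pDC, and Ddit3, the stress-induced member CHOP, at 6.15, 11.1 and 13.4. The family sum per kb was 24.0 CPM for cDC1, 48.8 for cDC2 and 71.3 for pDC, and Cebpa held 37.4%, 45.8% and 45.1% of it. Cebpe, the factor of late granulocytes, had too few counts for a test.

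Neutrophil markers, whose cells carry C/EBP proteins, were low: the 10 summed to 28.9, 7.26 and 39.3 CPM in cDC1 replicates 1 to 3, 121, 118 and 160 in cDC2, and 49.5, 6.64 and 63.2 in pDC. Ly6g had at most 3 counts in each of the cDC1 and pDC libraries. Mmp9 alone gave 65.9, 86.5 and 84.7 CPM of the cDC2 sums and was the 1 marker of 8 tested that was higher in cDC2 than in cDC1 (log2 fold change 6.84, edgeR adjusted p = 4.4e-05). The part of neutrophil RNA in the C/EBP values was not tested. Of the 10 monocyte markers, 5 were higher and 1 lower in cDC2 than in cDC1, with sums of 563 to 650 CPM in cDC1, 532 to 637 in cDC2 and 2240 to 3110 in pDC. Ly6c2, also known on pDC, supplied 2230 ± 424 CPM of the pDC sum.

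Klf4, a factor of monocytes and of a part of the cDC2, stood at 21.1, 18.0 and 28.6 CPM in cDC1, 75.8, 79.3 and 60.6 in cDC2, and 54.1, 46.0 and 53.1 in pDC. The 3 subsets did not overlap, and the order was cDC2, pDC, cDC1. Klf4 was 3.20-fold higher in cDC2 than in cDC1 (log2 fold change 1.68, SE 0.1828, edgeR adjusted p = 0.00013) and 2.27-fold higher in pDC than in cDC1 (1.18, SE 0.1812, edgeR adjusted p = 0.000432). The step from cDC2 to pDC was -0.49 (SE 0.1771, edgeR adjusted p = 0.0447). It was lost on leaving out any 1 of 6 libraries, namely cDC1 replicate 1, cDC2 replicates 1 and 2, and pDC replicates 1, 2 and 3 (-0.61 to -0.42 over the 9 left out in turn, edgeR adjusted p up to 0.133). Klf4 lies on chr4:55527143-55532466 (minus strand) and shares no window of 75 bases with another gene.

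Klf2, which keeps lymphocytes quiescent and controls their trafficking, did not separate the subsets in the main fit, which leaves out the replicate number. It stood at 81.9, 58.2 and 162 CPM in cDC1, 50.3, 36.4 and 115 in cDC2, and 72.4, 66.7 and 291 in pDC. In each subset replicate 3 was the highest library, by 2.31, 2.66 and 4.19 times the mean of the others in cDC1, cDC2 and pDC, and the subsets overlapped. The log2 fold change was 0.51 in pDC against cDC1 (95% interval -0.92 to 1.95, edgeR adjusted p = 0.546), 1.09 in pDC against cDC2 (-0.36 to 2.55, edgeR adjusted p = 0.202) and -0.58 in cDC2 against cDC1 (-2.02 to 0.86, edgeR adjusted p = 0.592). Within same-numbered libraries, which carry the same date code, Klf2 was lower in cDC2 than in cDC1 and than in pDC in 3 of 3 pairs. With the replicate number as a block, cDC2 against cDC1 was -0.63 (edgeR adjusted p = 0.018) and pDC against cDC2 was 0.93 (edgeR adjusted p = 0.00139), while pDC against cDC1 was 0.30 (edgeR adjusted p = 0.151). The block brought the count of members called in pDC against cDC2 from 4 to 7, adding Cebpa, Cebpd and Klf2, while the share of all genes called went from 45.8% to 55.5%. Klf2 lies on chr8:72319033-72321656 (plus strand).

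**Figure D3:**
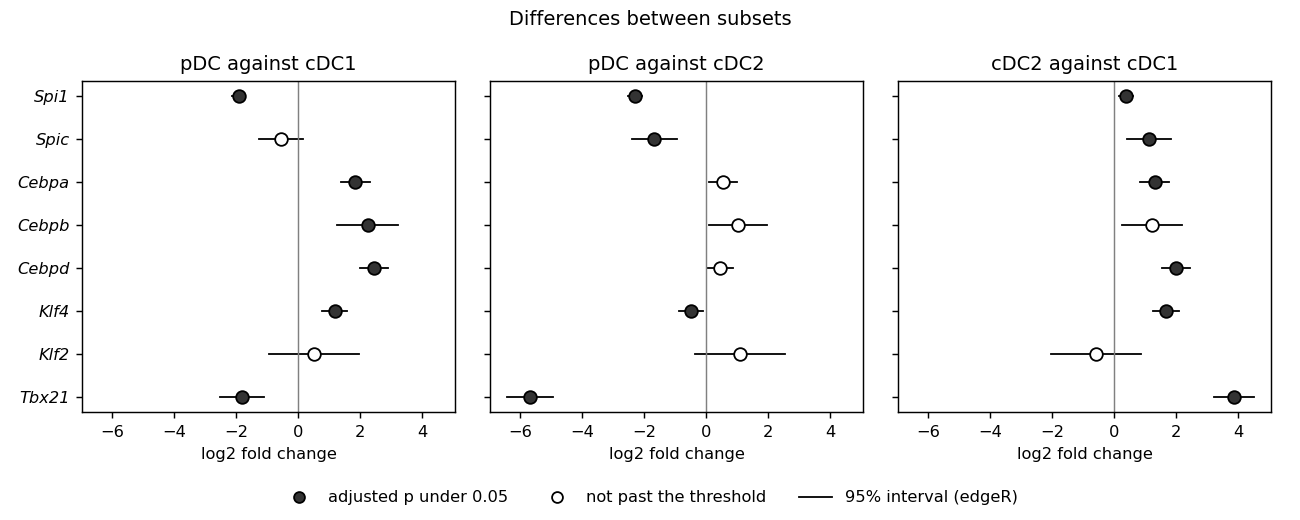
Log2 fold change (horizontal) of each gene (vertical) in the 3 comparisons, with 95% intervals from edgeR's quasi-likelihood fit over the 9 libraries and filled points for an adjusted p under 0.05. Tbx21 lies farthest from 0 in the comparisons with cDC2, at -5.68 and 3.87, and the Klf2 intervals cross 0 in all 3 panels.

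The replicate number was itself tested in a fit with subset and replicate number. Among the members Klf2 alone passed, 1 of 8 against 16.3% of all genes (edgeR quasi-likelihood F test, adjusted p = 0.000719), with replicate 3 above replicate 1 by 1.40 and above replicate 2 by 1.77 on the log2 scale. The next lowest was Cebpa (edgeR adjusted p = 0.153), and Klf4 had an edgeR adjusted p of 0.836. In the KLF family 5 of 12 tested genes passed. Klf2, Klf6 (replicate 3 minus 1, 1.27, edgeR adjusted p = 0.00171), Klf10 and Klf11 were highest in replicate 3, and Klf7 was lower there (-0.75, edgeR adjusted p = 0.0147). Immediate-early and heat-shock genes, which handling of tissue is known to induce, moved with it. Of 15 such genes 12 passed, each highest in replicate 3, with a median of 1.04 for replicate 3 minus 1 against -0.0247 over all genes. Their summed level in replicates 1, 2 and 3 was 3790, 2600 and 7760 CPM in cDC1, 4350, 4630 and 7870 in cDC2, and 2370, 2430 and 5500 in pDC. Their part in the Klf2 values was not tested. Without replicate 3 in all subsets, the members called were 7 in pDC against cDC1, where Spic joined them (-0.92, edgeR adjusted p = 0.0498), 6 in pDC against cDC2 and 7 in cDC2 against cDC1, against 63%, 59.8% and 37.7% of all genes. Spic lost its call in cDC2 against cDC1 there (0.95, edgeR adjusted p = 0.0537). In that fit Klf2 was -0.72 in cDC2 against cDC1 (edgeR adjusted p = 0.0331) and -0.05 in pDC against cDC1 (edgeR adjusted p = 0.862). Its difference in pDC against cDC2 passed there as well, with Klf2 higher in pDC.

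**Figure D4:**
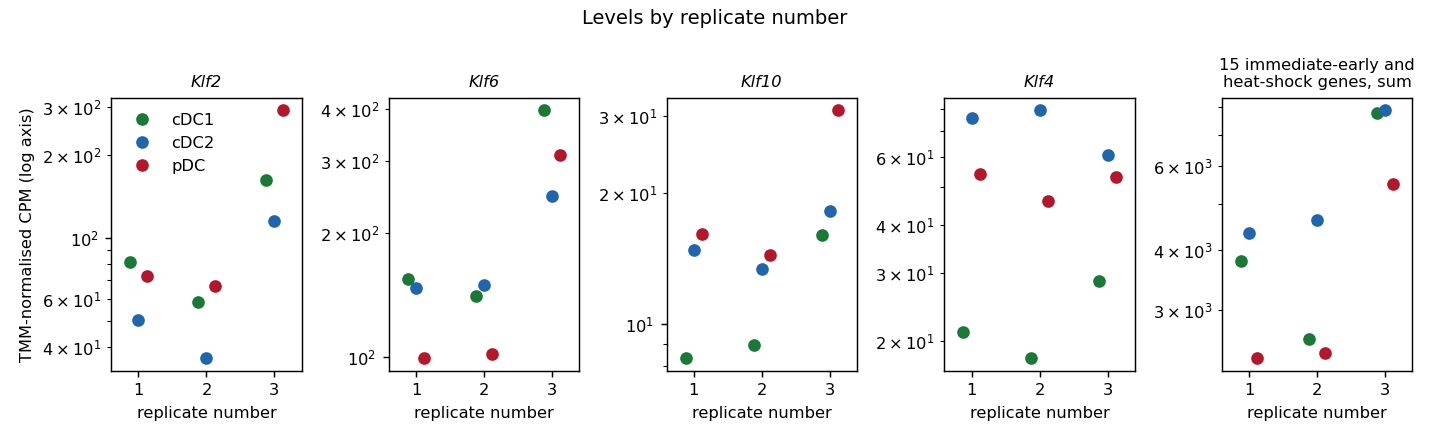
TMM-normalised CPM on log axes (vertical) of Klf2, Klf6, Klf10, Klf4 and the sum of 15 immediate-early and heat-shock genes, by replicate number (horizontal) and subset (colour), 1 point per library. Klf2 and the sum are highest in replicate 3 in each subset, the sum at 7760, 7870 and 5500 CPM, and Klf4 has no such step.

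Per kb, Klf2 and Klf6, a factor induced by tissue injury, led the KLF family in each subset. Klf2 stood at 54.4, 36.4 and 77.7 CPM per kb in cDC1, cDC2 and pDC and held 38%, 25.4% and 40% of the family sum, and Klf6 stood at 52.7, 41.3 and 38.8 and held 36%, 30.3% and 21.4%. Klf4 held 5.63%, 18.5% and 11.6%. In cDC2 the place of Klf2 above Klf4 did not hold in each library, since Klf4 was above Klf2 in replicate 2, at 26 against 19.7 CPM per kb. Of the 12 genes tested, 4 were higher and 2 lower in pDC than in cDC1 (48.6% of all genes called). In pDC against cDC2 1 was higher and 3 lower (45.8%). In cDC2 against cDC1 2 were higher and 10 did not pass (24.4%). The 2 higher genes were Klf4 and Klf13, a factor of late T cell activation (log2 fold change 1.31, edgeR adjusted p = 0.000103). Klf3, a repressor of the family, was lower in pDC than in both conventional DC (-0.98 against cDC1, edgeR adjusted p = 0.000455, and -1.02 against cDC2, edgeR adjusted p = 0.000366).

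Tbx21 stood at 36.8, 39.6 and 35.2 CPM in cDC2, at 3.10, 2.29 and 2.17 in cDC1, and at 0.878, 0.912 and 0.295 in pDC, where the lowest count was 5. The subsets did not overlap. Tbx21 was 14.6-fold higher in cDC2 than in cDC1 (log2 fold change 3.87, SE 0.292, edgeR adjusted p = 1.53e-05), 51.2-fold lower in pDC than in cDC2 (-5.68, SE 0.3301, edgeR adjusted p = 6.74e-07) and 3.5-fold lower in pDC than in cDC1 (-1.81, SE 0.3217, edgeR adjusted p = 0.00113). No other T-box gene passed in cDC2 against cDC1, where 4 of 17 had enough counts for a test. Eomes, the T-box factor of NK and memory T cells, stood at 0.927 ± 0.429 CPM for cDC1, 3.35 ± 2.19 for cDC2 and 1.14 ± 0.700 for pDC. Tbx21 lies on chr11:97098071-97115331 (minus strand) in 6 exons and shares no window of 75 bases with another gene.

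Since T-bet is abundant in NK cells, their markers are given beside it. The 9 markers summed to 134, 133 and 170 CPM in cDC1 replicates 1 to 3, to 93.5, 123 and 202 in cDC2, and to 40.6, 27.9 and 65.2 in pDC. Klrk1 alone, the gene for NKG2D, gave 117 to 132 CPM of the cDC1 sums and 65.2 to 81.6 of the cDC2 sums. In cDC2 against cDC1 it was the 1 marker of 9 that was lower (log2 fold change -0.74, edgeR adjusted p = 0.00114), and Ncr1 was the 1 that was higher (2.28, edgeR adjusted p = 0.0115), with a median of 1.69 over the list. Ncr1, the gene for NKp46, ranged from 2.33 to 10.4 CPM over the cDC2 libraries and averaged 1.32 ± 0.183 CPM in cDC1 and 1.5 ± 0.482 in pDC. The part of NK cell RNA in the Tbx21 values was not tested.

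Known targets of T-bet did not move as 1 group. Of 8 tested, 4 were higher and 1 lower in cDC2 than in cDC1 (24.4% of all genes called). Zeb2 (log2 fold change 2.71, edgeR adjusted p = 1.09e-05), Hlx (2.15, edgeR adjusted p = 7.29e-05) and Il2rb (2.05, edgeR adjusted p = 0.0447) were higher. Il2rb, which NK cells also express, ranged from 4.75 to 35.9 CPM over the cDC2 libraries. Cxcr3, a chemokine receptor of type 1 T cells, was lower in cDC2, at 8.83 ± 1.88 CPM against 65.4 ± 14.5 in cDC1 and 134 ± 15.3 in pDC (-2.89 in cDC2 against cDC1, edgeR adjusted p = 1.12e-05). Ifng, the best known of them, was below the floor in the cDC1 and pDC libraries and was not tested. In pDC against cDC2 2 were higher and 3 lower (45.8% of all genes called), and in pDC against cDC1 2 were higher and 1 lower (48.6%).

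Markers of the ESAM-high part of the cDC2, in which T-bet has been described, and of the ESAM-low part were both present in the cDC2 libraries. In cDC2 against cDC1 all 4 ESAM-high markers were higher, with a median log2 fold change of 4.23, and of 7 ESAM-low markers 6 were higher and 1, Clec12a, was lower, with a median of 2.09. Some of these markers were not highest in cDC2. In pDC against cDC2, 1 ESAM-high marker, Cd4, was higher and 3 were lower, with a median log2 fold change of -6.43. Of the ESAM-low markers 3 were higher and 4 were lower in pDC, with a median of -1.35. Dtx1, a Notch-regulated gene, stood at 472 CPM for cDC2, 11.5 for cDC1 and 2.78 for pDC. Csf1r, on both the ESAM-low list and the PU.1 list, stood at 371 ± 37.5 CPM for cDC2, 64.0 ± 19.3 for cDC1 and 60 ± 35.6 for pDC. How Tbx21 or Klf4 divides between these parts cannot be read from bulk libraries.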

How the data were processed

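RNA from 9 libraries (cDC1, cDC2 and pDC, 3 each) was read from one end over 75 bases after a stranded poly(A) preparation. The authors deposited raw read counts per gene in 1 table, without normalisation. The submitters' processing notes name STAR, SAMtools, featureCounts, MultiQC and the build mm10, with no versions. The annotation, the strand setting and the treatment of multi-mapped reads are not given in the sources used here, and the study names Degust without its statistical method.

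Subsets and replicate numbers came from the labels. Libraries with the same number share a date code, which pairs them, and their deviations from the subset means were correlated (mean r = 0.403 over 9 pairs, 0.266 to 0.543). Replicates of a subset differed by more than counting noise (chi-square over degrees of freedom, 10.1 to 63.5). In R 4.3.3, genes were kept by filterByExpr (minimum count 10), scaled by TMM and fitted together with edgeR 4.0.16 with the subset as the only term. Contrasts were tested by its quasi-likelihood test with Benjamini-Hochberg adjustment over the 13819 genes tested, at 0.05. The p-values measure the spread between these pooled samples. A second fit added the replicate number. Alternatives used DESeq2 1.42.0, limma 3.58.1 and the settings in the closing section, and the test was tried on simulated data. No set test was run.

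The members and the lists (ETS, C/EBP, KLF and T-box families, target genes, partners, cell type markers, immediate-early genes) were chosen with earlier results of these data known. Named genes were the 8 members; up to 4 genes per list with the largest change among those called with a mean count of at least 100; up to 4 of the highest in marker lists; and the 3 genes most correlated with each member among those with at least 5 CPM. Ncr1, Eomes, Ifng, Clec12a, Ly6g, C1qb, Cebpe, Klf6, Klf7, Klf10, Tmem189 and Spidr fall outside that rule and were named after their values were seen. Single values of some genes are not reported here. Positions and exon lengths came from GENCODE M21 on GRCm38, and promoters from RefSeq on GRCm38.p6. Figures used matplotlib 3.10.9 under Python 3.11.15.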

Additional observations from a re-analysis of the deposited data

How the results depend on the processing

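The alternatives set for the comparisons were the replicate block, library size alone, upper quartile and median-ratio factors, DESeq2, limma-voom, no filter on low counts, a minimum of 10 counts in every library, separate fits of the 6 libraries compared, stricter thresholds, and leaving out single libraries. Leaving out a replicate number in all subsets was added after seeing the data. The main counts of genes past the threshold were 6718 in pDC against cDC1, 6328 in pDC against cDC2 and 3370 in cDC2 against cDC1. Requiring also a log2 fold change of 1 or more in size, they were 4063, 3837 and 1812, and with an adjusted p under 0.01 the last was 2103. Without replicate 1 in all subsets they were 3927, 3585 and 1207, without replicate 2 they were 4252, 3908 and 1594, and without replicate 3 they were 8958, 8507 and 5356. Leaving out single libraries gave 5618 to 7106, 5346 to 6689 and 2451 to 4100. Members past the threshold in pDC against cDC2 went from 4 to 7 with the replicate block (45.8% and 55.5% of all genes), and beside the calls given with the values above the block changed no other call of a member. The Klf2 difference between pDC and cDC1 reversed to -0.53 without pDC replicate 3 and to -0.0453 without replicate 3 in all subsets, and ranged from -0.5265 to 0.9871 over single libraries left out. With library size alone the median of all genes stood at 0.108 in pDC against cDC1 and 0.137 in cDC2 against cDC1, against 0.0178 and 0.0269 with TMM, and 63.1% of the cDC2 against cDC1 calls were higher in cDC2 against 52.2% with TMM. Tbx21 could not be included with at least 10 counts in every library. The pDC against cDC1 differences of Spi1, Cebpa, Cebpb, Cebpd and Klf4 kept their direction and their side of the threshold in 23 of 23 alternatives, and those of Tbx21 in the 22 that held it. The replicate difference of Klf2 kept an edgeR or limma adjusted p between 4.44e-05 and 0.000852. The lowest counts were those of Tbx21 in pDC, which depth limits most.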

Other observations

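Known targets of PU.1 followed its order in part, but not as a group in pDC against cDC1, where Spi1 was lower in pDC. Of 14 tested, 9 rose and 2 fell from cDC1 to cDC2 (median log2 fold change 1.35), where 24.4% of all genes were called. In pDC against cDC2 3 were higher and 8 lower (median -1.55, 45.8% of all genes called). In pDC against cDC1 5 were higher and 4 lower (median 0.235, 48.6% of all genes called). Itgam (4.35 in cDC2 against cDC1, edgeR adjusted p = 1.63e-05) and Msr1, a scavenger receptor (3.87, edgeR adjusted p = 0.000445), were higher in cDC2. Itgam encodes CD11b, a marker of the study's gates, so its difference cannot be told apart from the sort. Csf2ra, the GM-CSF receptor chain, was lower in pDC than in cDC1 (-2.31, edgeR adjusted p = 8.45e-07), and Ncf4, an oxidase subunit, was lower too (-1.62, edgeR adjusted p = 3.42e-06). Cybb, the catalytic oxidase subunit, was highest in pDC, where Spi1 was lowest, at 125 ± 25.7 CPM for cDC1, 649 ± 51.3 for cDC2 and 2110 ± 82.3 for pDC (SD, n = 3). Of 14 tested targets of C/EBP proteins, 1 was lower in pDC than in cDC1 and 13 did not pass (48.6% of all genes called). In pDC against cDC2 4 were lower in pDC and 10 did not pass (45.8%), and in cDC2 against cDC1 3 were higher and 11 did not pass (24.4%). Lyz2, lysozyme, a gene of both lists, stood at 1400 ± 287 CPM for cDC2, 329 ± 64.6 for cDC1 and 175 ± 126 for pDC.

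Of 4 tested KLF2 targets, 3 passed in pDC against cDC1 (48.6% of all genes called) and 2 in pDC against cDC2 (45.8%), each higher in pDC. Itgb7, an integrin chain of lymphocyte homing, stood at 636 ± 36 CPM for pDC, 323 ± 40.6 for cDC1 and 451 ± 52 for cDC2, and its edgeR adjusted p across replicate numbers was 0.0304. Among 15 partners and antagonists of PU.1 and C/EBP proteins, 3 were higher and 2 lower in pDC than in cDC1 (48.6% of all genes called). In pDC against cDC2 3 were higher and 3 lower (45.8%), and in cDC2 against cDC1 2 were higher and 3 lower (24.4%). Trib1, which promotes the breakdown of C/EBPα, stood at 231 ± 98.9 CPM for pDC, 110 ± 55.5 for cDC1 and 15.9 ± 11.4 for cDC2. Its highest library was replicate 3 in each subset, at 345 CPM in pDC, 173 in cDC1 and 29 in cDC2. Irf8, a DNA-binding partner of PU.1, stood at 4240 ± 274 CPM for pDC, 2560 ± 221 for cDC1 and 269 ± 48.0 for cDC2, and Irf4, its relative, at 53.1 ± 3.49, 15.0 ± 3.34 and 69.5 ± 3.78. B cell markers summed to 57.2 to 105 CPM over the 9 libraries and erythroid markers to 38.3 to 73.8. T cell markers summed to 15.1 to 21.3 CPM in cDC1, 33.5 to 55.2 in cDC2 and 76.6 to 96.9 in pDC. Endothelial markers summed to 107 to 133 CPM in cDC1, 143 to 150 in cDC2 and 718 to 740 in pDC. Cdh5, Pecam1 and Kdr gave most of the pDC sum, at 324, 223 and 175 CPM. Vwf stood at 0.942 CPM in pDC against 20.5 in cDC1. Of 6 endothelial markers tested, 3 were higher and 1 lower in pDC than in cDC1, and 2 did not pass.

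The genes most like each member over the 9 libraries were read from 10205 genes by Pearson's r of log2(CPM + 1). The libraries fall into 3 subsets, so r largely follows the subset means, and for Klf2 it also takes in the step across replicate numbers. Each r is given as a description. Myo1g and Ptpn22 were among the 3 genes closest to Spi1 (r = 0.9975 and 0.9968), and Tbx21 was closest to Mmp12, a macrophage elastase (r = 0.998), Mapk11 (0.997) and Dtx1 (0.996). Cebpa and Cebpd had Lgals8 in common among their 3 closest genes and were close to each other (r = 0.978). Klf2 was closest to Arf1 (r = 0.986), whose means were 436, 396 and 437 CPM in cDC1, cDC2 and pDC.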
